A study of Mus musculus with 12 samples.

Results

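The oxidative phosphorylation subunits are the proteins that build the 5 complexes of the mitochondrial inner membrane. Members were taken by name as protein-coding genes whose symbol marks a subunit of complex I (mt-Nd and Nduf), II (Sdh), III (mt-Cytb and Uqcr), IV (mt-Co and Cox4 to Cox8) or V (mt-Atp and Atp5). This gave 97 of the 52636 genes in the count tables, of which 13 are encoded by mitochondrial DNA and 84 by nuclear chromosomes. The rule itself reads symbols and no measured value. The comparison of the mitochondrial-encoded with the nuclear-encoded subunits is followed below within each mouse and between the diets.

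Complexes I to IV pass electrons from NADH and succinate to oxygen, all of these but complex II pump protons out of the matrix, and complex V, the ATP synthase, uses the returning protons to make ATP. Complex II is built from nuclear genes alone, while the other complexes join subunits from both genomes. The mitochondrial genes are transcribed as long RNAs from both strands of the circular genome and then cut into single messages, so they share promoters, whereas each nuclear subunit has its own. Hepatocytes are rich in mitochondria.

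Liver RNA was sequenced from 12 male C57Bl/6J mice aged 16 weeks, 1 library per mouse. VDD-F1 mice (n = 6, called VDD1 to VDD6) were born to dams on a vitamin D deficient diet before mating and through pregnancy, and these dams also received calcium gluconate. VDS-F1 mice (n = 6, VDS1 to VDS6) were born to dams on a nutrient-matched vitamin D sufficient diet. The sires ate the control diet, all dams ate the sufficient diet after delivery, and all offspring ate it from weaning. The groups thus differ in the diet before birth and share the diet afterwards. The paper adds that serum levels recover slowly after such a switch, so low vitamin D reached into the first 2 weeks after birth. The litters are not given. The study further recorded a liver weight for 7 of the mice, 3 VDD-F1 (VDD4, VDD5, VDD6) and 4 VDS-F1 (VDS3, VDS4, VDS5, VDS6), and none for the other 5, which makes 2 sets of mice that are no labelled batch.

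Each library held 25897868 to 36403413 fragments, of which 14275793 to 20815066 were counted on the sense strand of genes, and 6.69% to 8.92% were set aside because they mapped to more than 1 place. Library VDS6 had the largest share outside annotated genes, 11.1%. All 8 hepatocyte markers passed the filter on low counts, with a summed level of 88019 to 104736 counts per 1000000 counts (CPM) in VDD-F1 (median 98673) and 77186 to 93731 CPM in VDS-F1 (median 84442). A single marker reached 1682776 counts in a library, so the sums rest largely on it. At an unadjusted edgeR p under 0.05, 0 of the 8 were higher and 1 was lower in VDD-F1, against 9.55% and 6.29% of all genes. The part of the difference between the sums in the results below was not tested. Library VDD2 stood apart in its cell markers. Its summed level was the highest of the 12 for the 6 stellate cell markers (891 CPM, next 578), the 5 cholangiocyte markers (115, next 71.7), the 5 lymphocyte markers (8.25, next 3.45) and the 4 dendritic cell markers (15.8, next 7.78). Over the whole lists, the stellate sum ran from 293 to 891 CPM in VDD-F1 and from 278 to 438 CPM in VDS-F1, and the cholangiocyte sum from 23.9 to 115 and from 27.6 to 51.0 CPM. The medians of VDD-F1 and VDS-F1 were 493 and 331 CPM for stellate, 61.3 and 38.15 for cholangiocyte, 5.57 and 1.52 for dendritic and 124 and 161 for Kupffer cell sums. At an unadjusted edgeR p under 0.05, 4 of 6 stellate and 3 of 5 cholangiocyte markers were higher in VDD-F1, against 9.55% of all genes. Of the 6 Kupffer cell markers 2 were lower, against 6.29%. No marker of the stellate, cholangiocyte, lymphocyte and dendritic lists was at 0 in all mice. However, only 2 of the 5 lymphocyte and 1 of the 4 dendritic markers passed the filter on low counts, so these 2 sums rest on few genes. Some of the results in which VDD2 was lowest are also given without it. In bulk liver, fewer hepatocytes and less RNA per hepatocyte cannot be told apart.

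Of the 97 members, 90 had a mean of at least 12 counts per library and were tested, 12 mitochondrial-encoded and 78 nuclear-encoded. The other 7 were mt-Atp8 (at most 4 counts in any library), Cox4i2 (7), Cox6a2 (5), Cox6b2 (13), Cox8b (2), Cox7b2 and Cox8c (0 in every library). A count of 0 allows up to 3 counts per library, which is 0.140 to 0.226 CPM on the TMM scale used here.

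The sequences of the mitochondrial genes bear on how they were counted, because the counter keeps a fragment only if it maps to 1 place and to 1 gene. Nuclear chromosome 1 carries 7 annotated pseudogenes, between positions 24611535 and 24616197 of GRCm38, that copy a run of mitochondrial DNA. The copy of mt-Co2, Gm28661, matched the gene at 681 of its 684 bases with 0 mismatches. The copies of mt-Atp6 (Gm10925, 678 of 681 bases), mt-Co3 (Gm28437, 783 of 784), mt-Nd3 (Gm28438, 342 of 348) and mt-Nd4l (Gm10222, 294 of 297) also aligned with 0 mismatches. These were local alignments, which leave out differing bases near the ends. The first bases of a gene and its copy are shown for mt-Co2 and mt-Nd3 from the GENCODE transcripts, each in the sense direction, with capitals where the 2 sequences differ. They lie at chrM:7013-7072 and chr1:24615506-24615565 for mt-Co2, and at chrM:9459-9518 and chr1:24613060-24613119 for mt-Nd3.
mt-Co2: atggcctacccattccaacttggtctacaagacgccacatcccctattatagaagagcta
Gm28661: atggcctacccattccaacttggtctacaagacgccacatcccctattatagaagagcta
mt-Nd3: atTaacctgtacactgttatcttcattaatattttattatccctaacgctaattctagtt
Gm28438: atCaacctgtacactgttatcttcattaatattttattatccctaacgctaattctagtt

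The mt-Co2 stretch holds no difference from its copy, and the mt-Nd3 stretch holds 1. In addition, mt-Atp8 and mt-Nd4l each overlap a neighbour on the same strand, and fragments in the overlap belong to 2 genes. The whole of mt-Atp8 (chrM:7766-7969) is shown with the 43 bases that it shares with mt-Atp6 in capitals, and the end of mt-Nd4l (chrM:10114-10173) with the 7 bases that it shares with mt-Nd4 in capitals.
mt-Atp8: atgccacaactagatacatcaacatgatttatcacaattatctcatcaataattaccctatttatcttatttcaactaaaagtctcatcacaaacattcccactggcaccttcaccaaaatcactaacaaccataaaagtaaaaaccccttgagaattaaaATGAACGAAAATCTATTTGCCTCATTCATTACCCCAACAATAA
mt-Nd4l: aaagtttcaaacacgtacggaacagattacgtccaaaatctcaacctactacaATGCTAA

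The counted levels of the mitochondrial genes were low wherever this sharing was near complete. Cut into windows of 100 bases, mt-Co2, mt-Co3, mt-Atp6, mt-Nd4l and mt-Nd3 shared 97.6% to 99.9% of their windows with another annotated transcript. These 5 genes averaged 4.40 to 19.8 fragments per kilobase of exon and 1000000 counts (FPKM). The other 7 genes tested averaged 1110 to 12730 FPKM. Among those, mt-Cytb, mt-Nd1, mt-Nd5 and mt-Nd6 shared 0% of their windows, mt-Nd2 3.19%, mt-Co1 30.8% and mt-Nd4 60.8%. The 5 low genes had 13 to 315 counts per library and their chromosome 1 copies 13 to 391, whereas mt-Co1 had 264798 to 440814. The level of mt-Atp8 was lower still (0.605 FPKM) although it shared 0% of its windows. The 230 bases between mt-Co2 and mt-Atp6, in which most of mt-Atp8 lies, correspond to 233 bases between their copies where no transcript is annotated, so that stretch could not be searched. The part of the shared sequence in the low counts was not tested. The values of these 6 genes are given here as counted and not as levels of their messages. Those of mt-Nd4 and mt-Co1 are likewise given as counted, since each has a partial copy on chromosome 1. The copy of mt-Nd4, Gm28439, matched the gene at 876 of its 1378 bases with 0 mismatches. The copy of mt-Co1, Gm29216, matched it at 482 of its 1545 bases with 1 mismatch.

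**Figure D1:**
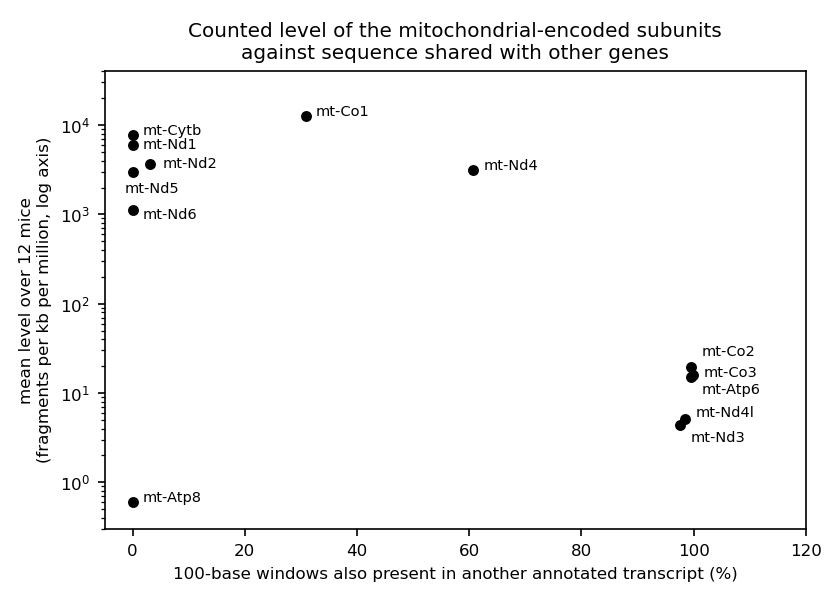
Mean counted level of the 13 mitochondrial-encoded subunits over 12 mice (FPKM, log axis) against the percent of their 100-base windows found in another annotated transcript. The 5 genes at 97.6% to 99.9% lie at 19.8 FPKM or less, 7 genes at 60.8% or less lie at 1110 FPKM or more, and mt-Atp8 is low at 0%.

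The mitochondrial-encoded subunits that could be counted were the most abundant members per kilobase. The catalytic core of cytochrome c oxidase, mt-Co1, led with 12730 FPKM, followed by cytochrome b of complex III, mt-Cytb (7750), and the complex I core subunits mt-Nd1 (5938), mt-Nd2 (3686), mt-Nd4 (3171), mt-Nd5 (3003) and mt-Nd6 (1110). This is the order of the levels as counted, with 60.8% of the windows of mt-Nd4 and 30.8% of those of mt-Co1 shared. The highest nuclear-encoded member, Cox6a1, had 396 FPKM. This ranking depends on the annotated exon length: Cox6a1 had 278 CPM over 702 bases, while Atp5a1 had 973 CPM over 3135 bases. The 13 mitochondrial genes together took 3.90% to 5.58% of the counts of a library and the 84 nuclear genes 0.878% to 1.09%. mt-Co1 alone made up 38.5% to 42.0% of the mitochondrial-encoded counts. These shares, and the ratios to nuclear-encoded counts below, are of counts and not of messages. In them 6 of the 13 mitochondrial genes stood under 25 CPM each.

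No mitochondrial-encoded subunit differed between the diets beyond the spread of the mice. In VDD-F1, mt-Co1 was lowest at 13821 CPM, had a median of 19389 and was highest at 21387. In VDS-F1 its lowest, median and highest levels were 18998, 20903 and 22252 CPM. The lowest VDD-F1 value was that of VDD2, and the groups overlapped. The log2-fold change of VDD-F1 over VDS-F1 was -0.15 ± 0.13 (SE), with an adjusted p-value of 0.60 by edgeR's quasi-likelihood test. The level of mt-Cytb was 5866, 8583 and 9952 CPM (lowest, median and highest) in VDD-F1 and 8735, 9492 and 10048 CPM in VDS-F1. Here too the ranges overlapped with VDD2 at the bottom, and the log2-fold change was -0.21 ± 0.13 (edgeR adjusted p = 0.48). Without VDD2 the log2-fold changes of mt-Co1 and mt-Cytb were -0.08 and -0.13.

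The largest difference in size among the 12 mitochondrial genes tested was that of mt-Nd4, a proton-pumping subunit of complex I. It stood at 2726, 4327 and 4657 CPM in VDD-F1 and 4373, 4729 and 5040 CPM in VDS-F1, a log2-fold change of -0.23 ± 0.13 with a 95% interval from -0.51 to 0.06 and an edgeR adjusted p of 0.43. The VDD-F1 median lay under the lowest VDS-F1 mouse, while VDD3 and VDD4 were within the VDS-F1 range. Without VDD2 its log2-fold change was -0.14. For mt-Nd6, the only subunit encoded on the light strand, the values were 349, 631 and 804 CPM in VDD-F1 and 420, 525 and 715 CPM in VDS-F1. Its VDD-F1 mice spanned the whole range of the VDS-F1 mice, at a log2-fold change of 0.15 ± 0.19 (edgeR adjusted p = 0.74). The remaining complex I genes mt-Nd1, mt-Nd2 and mt-Nd5 had log2-fold changes of 0.07, -0.05 and -0.14. VDD2 was the lowest mouse for mt-Nd2 (2552 CPM) and mt-Nd5 (3954 CPM). The medians of mt-Nd2 were 4018 CPM in VDD-F1 and 3814 CPM in VDS-F1, opposite in direction to its fold change. Those of mt-Nd5 were 5481 and 6010 CPM. The 5 genes with near-complete copies had log2-fold changes from -0.15 to 0.09, estimated from few counts.

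Over the 12 genes tested, 9 had a log2-fold change below 0 and 3 above, with a median of -0.14, beside a median of 0.00 for all 12453 genes tested. Without the 5 genes with near-complete copies the median was -0.14 (7 genes). It was -0.08 without VDD2, -0.09 without VDD6, -0.08 without VDS1 and -0.09 without VDS4, so single mice of either group moved it by more than 1.5 times. These genes share transcripts and mice and are not independent of each other.

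**Figure D2:**
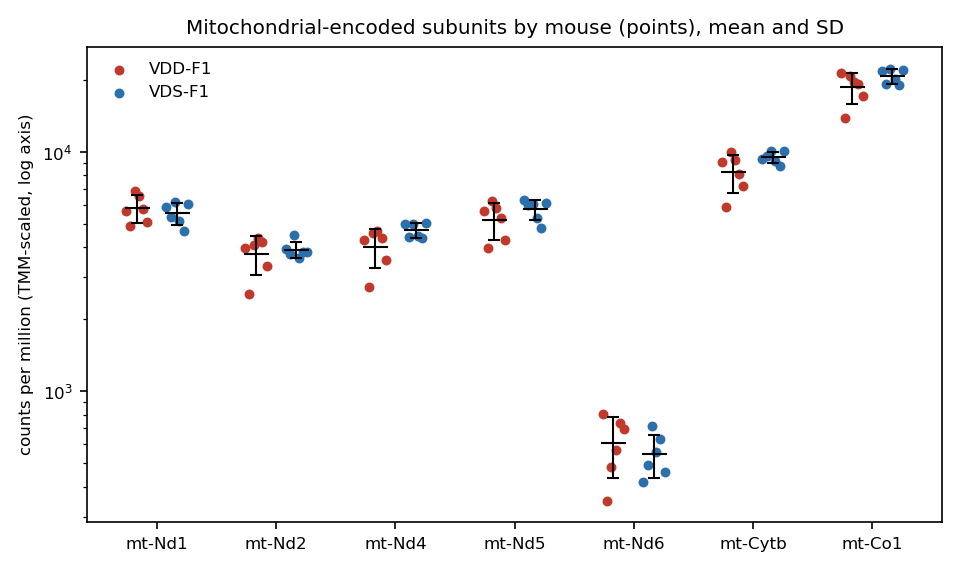
Level in each mouse of the 7 mitochondrial-encoded subunits tested that have no near-complete copy (points; CPM scaled with TMM factors, log axis), with the mean and SD of each group of 6. The groups overlap for every gene, and the lowest point of mt-Nd2, mt-Nd4, mt-Nd5, mt-Nd6, mt-Cytb and mt-Co1 is VDD2.

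Set against the nuclear-encoded subunits within each library, the mitochondrial-encoded counts were 3.93 to 5.53 times as many in VDD-F1 and 4.75 to 5.64 times in VDS-F1. The log2 of this ratio was 2.25 ± 0.20 (SD, n = 6) in VDD-F1 and 2.38 ± 0.10 (n = 6) in VDS-F1. The difference of -0.13 is smaller than the SD within VDD-F1 and larger than the SD within VDS-F1. Both are SDs of single mice and do not measure the uncertainty of a difference of means. The ratio does not depend on scaling between libraries. Its lowest values were those of VDD6 (1.97) and VDD2 (2.05), and these 2 mice also had the lowest shares of mitochondrial-encoded counts (4.30% and 3.90% of the library). VDD6 had the highest share of nuclear-encoded counts as well (1.09%). The difference was -0.07 without VDD6 and -0.09 without VDD2. It was -0.10 in the mice with a recorded liver weight (3 against 4) and -0.15 in those without (3 against 2).

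In the diet comparison, 0 of the 90 members passed an adjusted p-value of 0.05 by edgeR, against 0.0402% of all genes tested (5 of 12453), and 0 passed with DESeq2, against 4.05% of genes. At an unadjusted p under 0.05, 1 member was higher in VDD-F1, against 9.55% of all genes, and 2 were lower, against 6.29% of all genes. Without TMM factors 1 member was higher and 1 lower, against 11.06% and 4.06% of all genes. No member had groups that did not overlap, where 0.61% of genes did so with VDD-F1 higher and 0.57% with VDD-F1 lower. The members' fold changes ran from -0.29 to 0.38 on the log2 scale, so none came near the study's limit of 1. The estimates were narrow: for 85 of the 90 members the 95% interval lay within a 1.5-fold change in either direction, which held for 59.9% of all genes. The exceptions were mt-Nd3, mt-Nd4l, Atp5s, Cox7a1 and Ndufa4l2, with mean counts between 13.0 and 44.2 per library.

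The 3 members under an unadjusted p of 0.05 are an accessory and a core subunit of complex I and a small subunit of complex IV. Ndufb3, an accessory subunit of the membrane arm of complex I (chr1:58586384-58595964, plus strand), had 20.3, 30.6 and 34.6 CPM (lowest, median, highest) in VDD-F1 and 30.1, 35.0 and 38.9 CPM in VDS-F1. VDD2 and VDD5 lay below every VDS-F1 mouse and the other 4 VDD-F1 mice were within the VDS-F1 range. Its log2-fold change was -0.29 ± 0.12 (edgeR adjusted p = 0.28). Ndufs7, which holds the last iron-sulfur cluster before ubiquinone (chr10:80249121-80256794, plus strand), had 47.2, 57.9 and 68.2 CPM in VDD-F1 and 57.9, 66.8 and 69.9 CPM in VDS-F1. VDD1, VDD2 and VDD5 lay below every VDS-F1 mouse, at a log2-fold change of -0.20 ± 0.09 (edgeR adjusted p = 0.30). Without VDD2 the log2-fold changes of Ndufb3 and Ndufs7 were -0.21 and -0.15. Cox7a2, a small complex IV subunit in its common form (chr9:79755361-79759878, minus strand), had 73.3, 80.3 and 104 CPM in VDD-F1 and 64.9, 72.0 and 82.3 CPM in VDS-F1. VDD3 and VDD6 lay above every VDS-F1 mouse. Its log2-fold change was 0.20 ± 0.09 (edgeR adjusted p = 0.31).

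**Figure D3:**
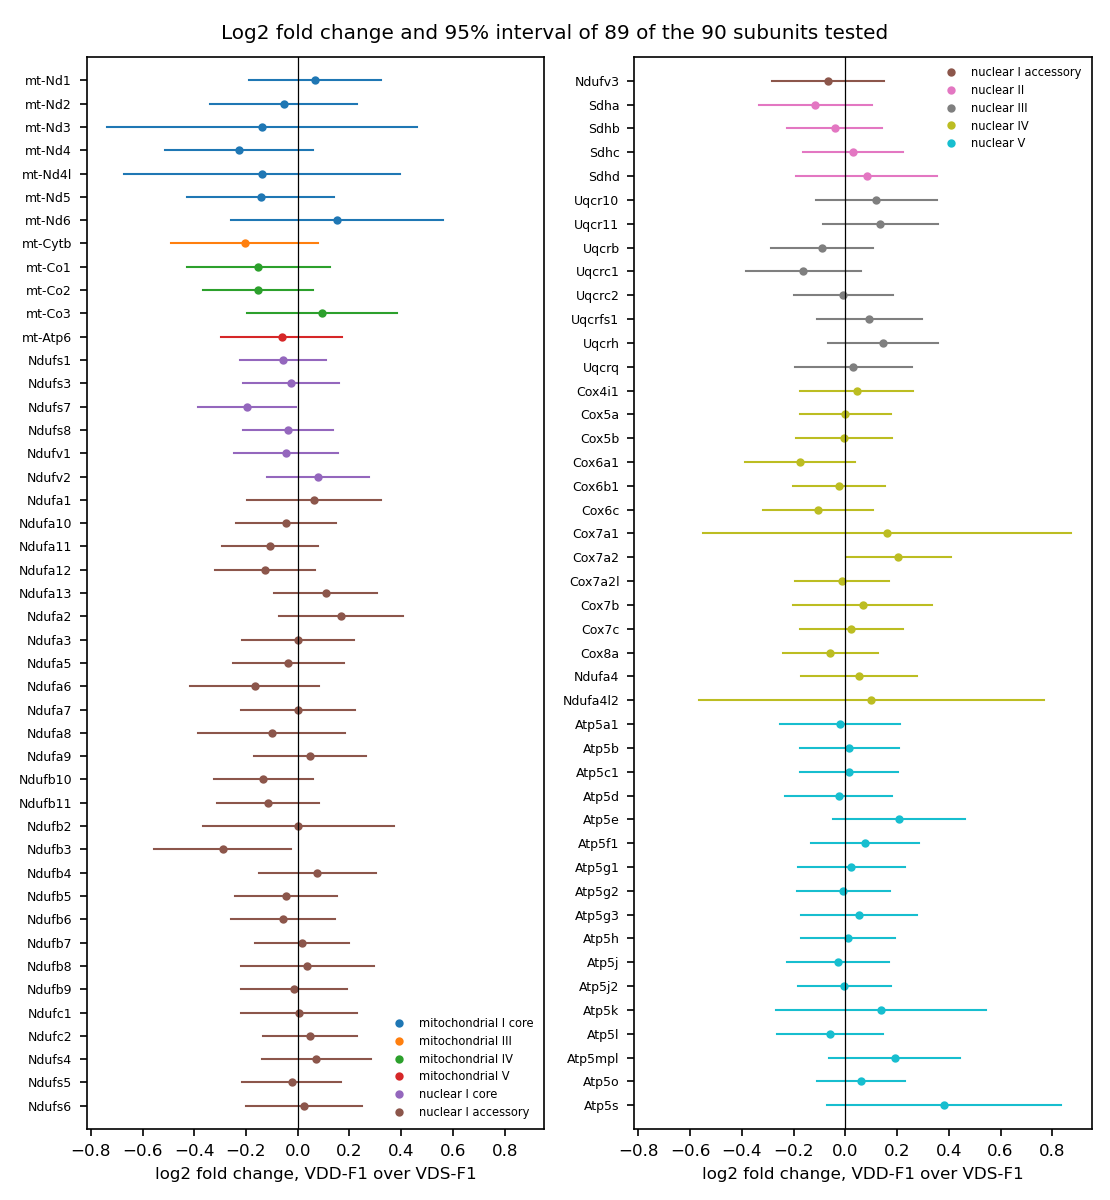
Log2-fold change of VDD-F1 over VDS-F1 (horizontal axis; points) with its 95% interval (lines) for 89 of the 90 members tested, coloured by genome and complex, all 12 mice. Most points lie within 0.2 of 0, and 3 intervals (Ndufb3, Ndufs7, Cox7a2) leave out 0 before adjustment.

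By complex, the nuclear-encoded subunits had medians close to 0. The 7 core subunits of complex I, which carry the flavin, the iron-sulfur clusters and the quinone site, had log2-fold changes from -0.20 to 0.08 (median -0.04), and the 28 accessory subunits from -0.29 to 0.17 (median -0.01). Of the accessory subunits, Ndufb9 was the most abundant nuclear-encoded member of complex I per kilobase (129 FPKM) and had 133 ± 20.0 CPM (SD, n = 6) in VDD-F1 and 134 ± 5.67 CPM in VDS-F1. Ndufb10 (78.0 ± 10.2 and 85.5 ± 5.17 CPM) and Ndufa6 (74.5 ± 12.02 and 83.7 ± 10.15 CPM) had smaller means in VDD-F1, and Ndufa2 (39.1 ± 4.96 and 34.8 ± 4.62 CPM) a larger one, without passing the test. In complex II, the 4 subunits of succinate dehydrogenase ran from -0.12 to 0.08. The flavoprotein Sdha, the most abundant of them per kilobase, stood at 459 ± 65.6 CPM (SD, n = 6) in VDD-F1 and 497 ± 26.3 CPM in VDS-F1. The 8 nuclear-encoded subunits of complex III ran from -0.16 to 0.15, with the core protein Uqcrc1 at the low end (243 ± 36.6 against 272 ± 20.0 CPM) and the hinge protein Uqcrh at the high end (79.6 ± 11.6 against 71.9 ± 6.32 CPM). VDD2 was the lowest mouse for both Sdha (348 CPM) and Uqcrc1 (190 CPM). The small subunit Uqcr11, highest per kilobase in this complex (182 FPKM), had 122 ± 20.2 and 111 ± 7.21 CPM.

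The 14 nuclear-encoded subunits of complex IV ran from -0.17 to 0.20 (median 0.01). Cox6a1, the nuclear member with the highest level per kilobase, was lowest at 221 CPM in VDD-F1 with a median of 257 and a highest value of 325, and stood at 267, 297 and 309 CPM in VDS-F1. Its VDD-F1 values spread on both sides of the VDS-F1 range (log2-fold change -0.17 ± 0.10, edgeR adjusted p = 0.41). In complex V, the 17 subunits ran from -0.06 to 0.38 (median 0.01). The catalytic-head subunit Atp5a1 had 797, 943 and 1273 CPM in VDD-F1 and 946, 975 and 1030 CPM in VDS-F1, so the medians differed little while the VDD-F1 range was far wider. The highest fold change was that of Atp5s, coupling factor B, at 2.93 ± 0.58 against 2.26 ± 0.49 CPM (log2-fold change 0.38 ± 0.21, edgeR adjusted p = 0.40). The small central-stalk subunit Atp5e had 60.8 ± 11.1 and 52.7 ± 5.71 CPM, and Atp5mpl, a small membrane subunit, 41.2 ± 8.97 and 36.1 ± 2.48 CPM.

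The isoforms of complex IV followed the tissue. The forms found in most tissues, Cox4i1, Cox6a1, Cox6b1, Cox7a2, Cox7b, Cox8a and Ndufa4, had 74.8 to 396 FPKM, and none passed the test. Of the heart and muscle forms, Cox7a1 had 1.42 FPKM, while Cox6a2 and Cox8b did not reach the filter, and 5 markers of skeletal muscle summed to at most 0.767 CPM in any mouse. The hypoxia-linked Ndufa4l2 had 1.12 FPKM and the lung form Cox4i2 0.105 FPKM. The testis form Cox6b2 had at most 13 counts, with that count in VDD2, and Cox7b2 and Cox8c had 0.

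The nuclear-encoded members were spread more widely among the VDD-F1 mice than among the VDS-F1 mice. Of the 78 nuclear-encoded members tested, 75 had a larger SD in VDD-F1 than in VDS-F1, with a median ratio of the SDs of 2.20, while this held for 61.5% of all genes tested at a median ratio of 1.18. Without VDD2 it held for 72 of 78 members, with a median ratio of 2.05, and for 53.6% of all genes. With CPM of the library total, which leaves out the TMM factors, it held for 67 of 78 members (median ratio 1.53) and 66.2% of all genes (median ratio 1.26). The scaling therefore changes the size of this difference. For the 12 mitochondrial-encoded members the number was 10 with TMM factors (median ratio 1.59) and 7 without them (1.07). The members share the same mice, so these counts are a description of 12 mice and carry no test.

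The same few mice were at the extremes. On the TMM scale, VDD3 was the highest of the 12 mice for 39 of the 78 nuclear-encoded members and VDD6 for 23, against 9.68% and 7.78% of all genes, while VDD2 and VDD5 were the lowest for 31 members each, against 17.6% and 6.52% of all genes. On the scale of library totals VDD6 was highest for 54 members (against 10.6% of all genes) and VDD5 lowest for 30 (5.83%), followed by VDS6, lowest for 20 (16.7%). On that scale VDD3 was highest for 6 members (2.67% of all genes) and VDD2 lowest for 10 (6.86%). VDD6 and VDD5 thus stood apart on both scales, and VDD3 and VDD2 mostly where the TMM factors entered (0.899 and 1.14, the lowest and the highest of the 12). Summed over complex V, the nuclear-encoded subunits reached 4514 CPM in VDD3 and 3216 CPM in VDD2, with 3744 ± 459 (SD, n = 6) in VDD-F1 and 3710 ± 63.0 (n = 6) in VDS-F1. The complex IV sum was 1757 ± 208 and 1782 ± 47.7 CPM, and the complex I sum 2184 ± 251 and 2226 ± 48.2 CPM. The complex II sum was 862 ± 119.1 and 895 ± 18.7 CPM, and the complex III sum 1124 ± 140 and 1123 ± 35.7 CPM. On this TMM scale the SD of the sums was 3.91 to 7.27 times as large in VDD-F1 as in VDS-F1, and on the scale of library totals it was 1.69 (complex II) to 2.74 (complex V) times as large. The means differed by less than 1 SD of VDD-F1 in all 5 complexes on both scales. With all mice, they differed by more than 1 SD of VDS-F1 for complex II on the TMM scale (SD 18.7 CPM). The same held for complex V on library totals (SD 93.6 CPM). These are SDs of single mice and not of a difference of means. For complexes I, II and IV the sign of the difference on the TMM scale rested on VDD2, and for I and IV it also turned with the scaling. VDD-F1 minus VDS-F1 was -42.6 CPM for complex I, -32.8 for II, 1.59 for III, -25.9 for IV and 33.9 for V with all mice, and 23.0, 2.10, 36.7, 14.7 and 139 CPM without VDD2. On the scale of library totals, with all mice, it was 16.0, -11.6, 31.4, 23.3 and 131 CPM. The SDs of the 5 VDD-F1 mice left were 216, 92.8, 123, 204 and 423 CPM. VDD2 carried the highest stellate, cholangiocyte, lymphocyte and dendritic marker sums, and the stellate sums of VDD4, VDD5, VDD6 and VDD3 were 578, 510, 476 and 447 CPM. The part of the cell markers in the spread was not tested.

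**Figure D4:**
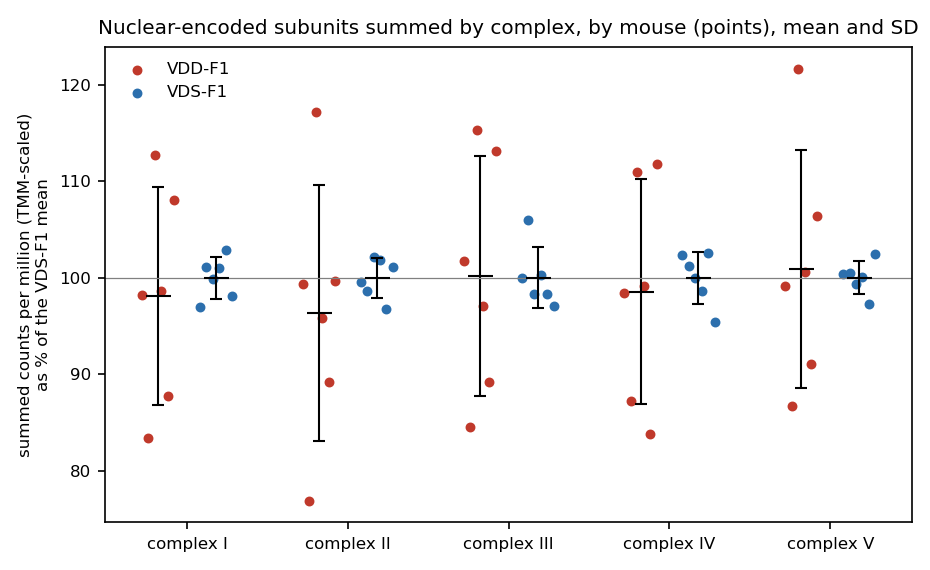
Nuclear-encoded subunits summed by complex in each mouse (points; TMM-scaled CPM as a percent of the VDS-F1 mean), with the mean and SD of each group of 6. The VDS-F1 mice lie close together in every complex, while VDD-F1 mice lie both above and below them around a similar mean.

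When the 7 mice whose liver weight was recorded were compared with the other 5, 0 of 90 members passed an adjusted p of 0.05 by edgeR, against 2.46% of all genes. Unadjusted, 4 of 90 members passed 0.05, where 1726 of 12453 genes did. The accessory complex I subunits Ndufa3 (log2-fold change 0.25) and Ndufa1 (0.28) were higher in the mice with a recorded weight, and Ndufa8 (-0.29) and the complex II anchor Sdhd (-0.26) were lower, with edgeR adjusted p-values of 0.16 to 0.32. The diet effect did not differ between the sets for any member at an edgeR adjusted p of 0.05 (0 of 90, against 0.0883% of all genes). Unadjusted, 0 of 90 members passed 0.05 here, where 1122 of 12453 genes did. In the mice with a recorded weight alone, 5.85% of all genes were higher and 5.12% were lower in VDD-F1 at an edgeR adjusted p of 0.05, and 0 of the 90 members were called in either direction. The largest of the mitochondrial-encoded differences had the same sign in both sets: mt-Cytb had a log2-fold change of -0.22 in the mice with a recorded weight and -0.19 in those without, and mt-Nd4 -0.18 and -0.28.

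The strand of the counts separated the mitochondrial genes further. For mt-Co1, mt-Cytb, mt-Nd1, mt-Nd2 and mt-Nd4, counts on the strand opposite to the gene were 0.0474% to 1.91% of both strands in any mouse. For mt-Nd5 they were 7.56% to 17.2%. For mt-Nd6, whose opposite strand is the one that carries the other mitochondrial subunits, they were 37.2% to 62.6%. The position of mt-Nd6 is chrM:13552-14070, directly after and slightly overlapping mt-Nd5 (chrM:11742-13565). Across the 12 mice, the opposite-strand share of mt-Nd5 and the level of mt-Nd6 moved together (Pearson's r = 0.82, permutation p = 0.0011, and Spearman's rho = 0.82, permutation p = 0.0019, both 2-sided). Without VDD5 and VDD6, the 2 mice farthest from the median share, r was 0.85, and it was 0.80 within VDD-F1 and 0.89 within VDS-F1 (n = 6 each). Both measures read the same strand of neighbouring stretches in the same libraries, and this 1 relation was chosen after the values were seen.

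**Figure D5:**
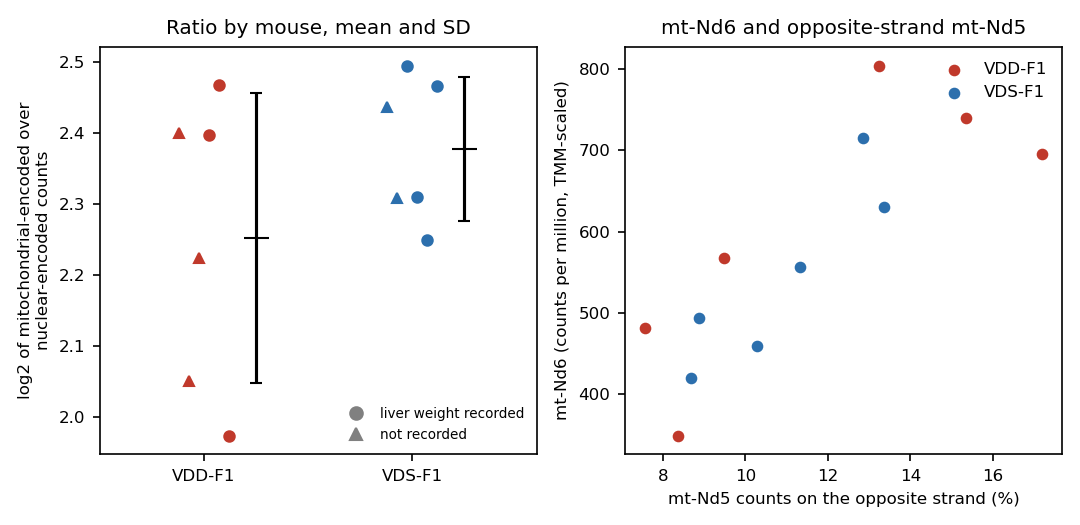
Left, log2 of summed mitochondrial-encoded over nuclear-encoded counts in each mouse with the mean and SD of each group of 6; circles mark mice with a recorded liver weight and triangles those without, and VDD6 and VDD2 are lowest. Right, level of mt-Nd6 (TMM-scaled CPM) against the percent of mt-Nd5 counts on the opposite strand in each mouse, which rise together in both groups.

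Genes that build, transcribe or serve the complexes were listed apart from the members. Of 187 such genes tested in 9 lists, 0 passed an adjusted p of 0.05 by edgeR and 3 did by DESeq2, against 0.0402% and 4.05% of all genes. Unadjusted, 6 were higher and 6 were lower in VDD-F1, against 9.55% and 6.29% of all genes. The 3 genes called by DESeq2 were all higher. Slc25a4, the heart and muscle form of the ADP/ATP carrier, had 5.62 ± 1.93 CPM in VDD-F1 and 3.14 ± 0.54 CPM in VDS-F1 (log2-fold change 0.85 ± 0.23, edgeR adjusted p = 0.10, DESeq2 adjusted p = 0.023). Idh2, the NADP-dependent isocitrate dehydrogenase of mitochondria, had 102 ± 20.0 and 76.0 ± 7.58 CPM (0.43 ± 0.12, edgeR adjusted p = 0.12, DESeq2 adjusted p = 0.044). Mrps33, of the small mitochondrial ribosomal subunit, had 6.79 ± 0.70 and 4.69 ± 0.81 CPM (0.53 ± 0.14, edgeR adjusted p = 0.099, DESeq2 adjusted p = 0.022).

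In the lists of assembly factors, 1 of 14 genes for complex I passed an unadjusted p of 0.05, and 4 of 32 genes for complexes II to V did. Of all 12453 genes tested, 1972 passed in either direction. Ecsit, an assembly factor of complex I, had 33.6 ± 5.54 CPM in VDD-F1 and 42.4 ± 3.29 CPM in VDS-F1, with groups that did not overlap, as for 0.57% of all genes in that direction (edgeR adjusted p = 0.17). Cox10, which makes the heme of complex IV, had 11.6 ± 0.71 and 14.6 ± 1.84 CPM (edgeR adjusted p = 0.13). Among 18 genes of mitochondrial transcription and RNA handling none passed an unadjusted p of 0.05. The transcription factor Tfam had 27.3 ± 0.77 and 24.6 ± 2.09 CPM and the mitochondrial RNA polymerase Polrmt 21.9 ± 2.26 and 24.5 ± 1.98 CPM. For copying mitochondrial DNA, 1 of 8 genes passed, the topoisomerase Top1mt (14.1 ± 2.28 and 18.2 ± 2.74 CPM, edgeR adjusted p = 0.17). None of 10 regulators of nuclear respiratory genes passed. The nuclear receptor Esrrg had the largest fold change of the lists, with 0.0526, 0.338 and 4.14 CPM (lowest, median and highest) in VDD-F1 and 1.14, 4.69 and 6.02 CPM in VDS-F1. VDD1 and VDD3 lay within the VDS-F1 range and the other 4 VDD-F1 mice lay below it, at a log2-fold change of -1.52 ± 0.76 (edgeR adjusted p = 0.35). The coactivator Ppargc1a varied between 7.83 and 38.3 CPM in VDD-F1 and between 5.67 and 30.8 CPM in VDS-F1. In the other lists, 4 of 77 mitochondrial ribosomal proteins, 1 of 14 citrate cycle genes, 1 of 8 membrane carriers and 0 of 6 subunits and carriers that the naming pattern misses, such as Cyc1, passed unadjusted, beside the same 1972 of 12453 genes.

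The promoters of the nuclear-encoded members were searched for motifs of factors known to act on respiratory genes. RefSeq windows (GRCm38.p6) of 250 bases before to 50 bases after the start were matched for 68 of the 84 genes, in 73 windows. The NRF1 motif GCGCATGC was in 13.7% of these windows and 2.71% of all 32851 windows, the ETS motif CCGGAAG in 21.9% and 8.86%, the YY1 motif AAGATGGC in 13.7% and 2.75%, and the NFY motif CCAAT in 42.5% and 37.4%, on either strand. NRF1 and ETS factors are known activators of respiratory genes. Among the genes without a matched window were Atp5a1, Atp5mpl, Cox4i1, Cox4i2, Cox6a2, Cox6c, Cox8c, Ndufa2, Ndufa4l2, Ndufb9, Ndufs1, Sdhc, Uqcrb, Uqcrc2 and Uqcrq. The windows of Cox6a1 (chr5:115348909-115349208, minus strand) and Uqcr11 (chr10:80406772-80407071, minus strand), each the most abundant nuclear member of its complex per kilobase, held both an NRF1 and an ETS match and are shown 5′ to 3′ with the matches in capitals. In Cox6a1, the capitals join 2 NRF1 matches that overlap on opposite strands.
Cox6a1: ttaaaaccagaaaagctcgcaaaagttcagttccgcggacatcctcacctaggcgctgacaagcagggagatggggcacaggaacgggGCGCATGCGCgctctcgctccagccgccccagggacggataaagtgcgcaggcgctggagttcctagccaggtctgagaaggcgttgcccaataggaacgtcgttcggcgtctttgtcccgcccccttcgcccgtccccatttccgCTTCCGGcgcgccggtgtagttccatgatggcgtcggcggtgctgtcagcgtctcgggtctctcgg
Uqcr11: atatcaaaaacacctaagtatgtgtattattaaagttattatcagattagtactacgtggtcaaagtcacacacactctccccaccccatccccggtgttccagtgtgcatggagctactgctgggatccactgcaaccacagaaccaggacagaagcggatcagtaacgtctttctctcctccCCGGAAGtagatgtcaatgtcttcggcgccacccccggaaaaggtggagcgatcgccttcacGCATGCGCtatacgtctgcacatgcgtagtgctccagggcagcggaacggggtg

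These matches are letters in the sequence and no measurement of binding. Of all member windows searched, 6 held 2 of the NRF1, ETS and YY1 motifs.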

How the data were processed

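RNA-seq libraries had been made by the authors from total liver RNA after ribosomal RNA removal, 1 per mouse. Reads were trimmed and aligned with STAR to mm10 (version not given in the sources used here), and counts per gene were obtained with GENCODE M15. The deposited values are raw counts of fragments per gene, 1 ignoring the strand and 1 for each strand, with replicates not pooled and nothing normalized. The reverse-strand count was used, since it held 92.7% to 95.8% of the stranded counts. STAR counts only fragments placed once and in 1 gene, so fragments that fall entirely in identical copies or in overlaps of genes are left out. Symbols, positions and transcript sequences came from GENCODE M21 (GRCm38), which matched 52403 of 52636 genes, and promoters from RefSeq.

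Groups were taken from the prenatal condition in the labels. Members and gene lists were chosen with earlier results of these data known. 1 member enters the counts and sums but is not reported singly here. The naming pattern misses some subunits, among them Cyc1. Genes averaging 12 or more counts per library were tested with edgeR 4.0.16 in R 4.3.3 (TMM factors, quasi-likelihood fit in the legacy form) over all 12 mice, with Benjamini-Hochberg adjustment over 12453 genes. Standard errors were derived from the F statistic and 95% intervals from its degrees of freedom. The sets of mice were compared with the diet in the model. CPM are counts per 1000000 of the TMM-scaled library, FPKM the same per kilobase of the union of a gene's exons. DESeq2 1.42.0, other scalings, filters and samples were alternatives. Nothing says whether mice shared litters, and p-values measure the spread between these mice. The steps were tested on simulated counts. The correlation used 100000 permutations. Shared sequence was found as identical windows of 50 and 100 bases on either strand of any other annotated transcript, and alignments were made with Biopython 1.88. Other steps used Python 3.11.15, NumPy 2.4.6, SciPy 1.17.1, pandas 2.3.3 and matplotlib 3.10.9.

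Named members are the mitochondrial-encoded ones, the 6 nuclear-encoded ones with the smallest p in each direction, the most abundant per kilobase in each complex, the tissue isoforms, those under the filter, the 4 with the smallest p between the sets of mice, those with 1 mouse far from its group, and up to 3 genes per pathway list.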

Additional observations from a re-analysis of the deposited data

Results flagged for a closer look

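Within a group of 6 mice, 1 mouse lay far from the other 5 (by the ratio of its gap to the nearest mouse over the group's range, against Dixon's 95% critical value) in 12 of 184 groups of values looked at, for 89 members and 3 summed measures. Chance flags about 1 in 20 such groups. In VDD-F1, VDD2 was low for Ndufa10 (99.4 CPM, others 131 to 148) and Uqcrc2 (118 CPM, others 151 to 169). VDD6 was high for the small subunits Atp5mpl (59.3 CPM, others 35.9 to 39.3) and Ndufa4 (193 CPM, others 125 to 143). VDD4 was high for mt-Nd3 (2.06 CPM, others 1.21 to 1.45), a gene with few counts and a near-complete copy.

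In VDS-F1, VDS3 was high for mt-Nd2 (4493 CPM, others 3613 to 3923), and VDS2 was low for Cox6a1 (267 CPM, others 295 to 309). VDS4 was high for Ndufa11 (55.5 CPM, others 47.1 to 49.8). VDS1 was low for Ndufa12 (40.3 CPM, others 45.6 to 47.8) and high for Ndufa8 (82.7 CPM, others 66.8 to 71.0). VDS6, the library with the largest share outside genes, was low for Ndufa2 (25.6 CPM, others 35.3 to 38.4) and high for Uqcrc1 (310.3 CPM, others 255 to 274). The source of these single values was not tested.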

How the results depend on the processing

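No member passed an adjusted p of 0.05 under any of the 24 alternatives of the diet comparison, the 18 of the sets of mice or the 18 of their interaction. The smallest adjusted p of a member was 0.0755, 0.0761 and 0.20 in these families. The counts at an unadjusted p under 0.05, 1 higher and 2 lower, were small and moved easily. Higher members numbered 0 with a total count of at least 12, with the replicate block and in the mice without a recorded weight, and 3 in the mice with one. Lower members numbered 1 without TMM factors, with upper-quartile factors and with the replicate block, 0 with the set of mice as a covariate and in the mice without a recorded weight, and 5 in the mice with one. Leaving out each mouse in turn gave 0 to 5 higher and 0 to 6 lower; the largest counts came without VDD5 (5 higher, against 8.32% of all genes) and without VDD3 (6 lower, against 7.85%). In the mice with a recorded weight, 12.9% of all genes were higher and 12.5% lower, in those without 2.06% and 1.73%, and the other alternatives lay between these.

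The replicate numbers name different mice, and deviations of same-numbered mice correlated between -0.076 and 0.10, so the block is no pairing. With the replicate block the median log2-fold change was -0.10 for the mitochondrial-encoded and 0.00 for the nuclear-encoded members. The difference in the log2 ratio, -0.13, cannot change with the block, since every block holds 1 mouse of each group. The medians and the ratio moved by less than 1 SD between mice under all alternatives. This SD was 0.16 for the ratio and 0.15 for the mitochondrial median. Both exceed the differences themselves, so this bound shows no stability. The median without the members with a copy, and the spread with other scalings, were chosen after seeing the data. Of 43 named members with a fit, 19 changed the sign of their uncalled fold change under at least 1 alternative. The genes under the filter were left out of the main test for their few counts. The alternative with no filter fitted 95 members and that with a total count of at least 12 fitted 93. The cause of the low counts of the genes under the filter was not tested.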
